A study of Rattus norvegicus with 8 samples.

Results

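The genes described here are 36 cell cycle and DNA replication genes of the rat, chosen by name and split by the phase in which their products act into 16 genes of G1/S and replication and 20 genes of G2/M. Every probe set annotated with 1 gene symbol from the list was taken. This gave 49 of the 31142 probe sets measured, 37 on chip A and 12 on chip B, for 35 of the 36 genes. Cdc6 was matched by no probe set of its own and is not analysed here, and a probe set shared by Rrm2 and a second symbol was left out. The RNA came from PC12, a clonal line grown from a rat pheochromocytoma, a tumour of the chromaffin cells of the adrenal medulla. One group had forskolin (spelled foreskolin in the sample labels), which activates adenylyl cyclase and so raises cyclic AMP; the other is labelled as having none and is called an inactive control in the series title. Total RNA of each group was measured on 2 arrays of chip A and 2 of chip B. The sources used here do not give the dose, the time of exposure, the medium or any synchronisation of the cells, and the labels do not say that replicates were separate cultures, so the p-values measure only the spread between these arrays, which may be technical.

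A dividing cell passes through G1, copies its DNA in S phase, and divides in mitosis after G2. Cyclins bound to cyclin-dependent kinases (CDKs) drive these steps, and the MCM helicase, loaded on origins in G1, opens DNA for copying. Transcripts of G1/S genes are known to peak around the start of S phase under E2F factors, and those of G2/M genes later, under complexes that bind CHR elements and CCAAT boxes. Cyclic AMP can slow or promote division depending on the cell, and PC12 cells are known to extend neurites when cyclic AMP rises.

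The promoters of the members were searched for these elements. Promoters of 29 members were matched by symbol in a RefSeq table (build GRCr8) that gives 300 bases for each gene, 250 before its start and 50 after; Aurkb, Ccna2, Ccnd1, Ccne2, Cdc6, Mcm4 and Rrm2 were not matched. Both strands were searched for an E2F site (TTTCCCGC, TTTCGCGC, TTTGCCGC or TTTGGCGC), the CHR element (TTTGAA) and the CCAAT box (CCAAT). An E2F site was found in 6 of 11 G1/S and replication genes and 1 of 18 G2/M genes, against 2.14% of 33469 promoters. The CHR element was found in 12 of 18 G2/M genes and 1 of 11 G1/S and replication genes, against 18.3% of all promoters. A CCAAT box was present in 15 of 18 and 7 of 11, against 37.5%. These are counts of letters, not of bound sites, and nothing was tested. The bases before the start are shown for both genes with a called probe set (Top2a and Ccnb1), for Cdk1, which held all 3 elements, and for 2 MCM genes with E2F sites, with the matches in capitals. On the opposite strand a CCAAT box reads ATTGG and a CHR element TTCAAA. In Mcm6 a site of the form TTTGGCGC overlaps one that reads GCGCGAAA on this strand, and in Mcm7 an E2F site overlaps a CCAAT box.
Top2a, GRCr8 chr10:84473094-84473343, minus strand: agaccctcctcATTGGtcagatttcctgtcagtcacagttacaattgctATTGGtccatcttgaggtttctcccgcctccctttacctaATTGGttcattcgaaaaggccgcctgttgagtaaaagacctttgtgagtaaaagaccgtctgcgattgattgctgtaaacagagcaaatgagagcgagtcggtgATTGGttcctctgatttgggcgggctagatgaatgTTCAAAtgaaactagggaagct
Ccnb1, GRCr8 chr2:33655226-33655475, minus strand: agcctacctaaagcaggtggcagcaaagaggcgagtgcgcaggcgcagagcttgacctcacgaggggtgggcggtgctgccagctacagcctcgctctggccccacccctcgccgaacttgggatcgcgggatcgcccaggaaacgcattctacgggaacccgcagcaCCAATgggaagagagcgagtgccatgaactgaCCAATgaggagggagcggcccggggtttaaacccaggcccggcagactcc
Cdk1, GRCr8 chr20:19265043-19265292, plus strand: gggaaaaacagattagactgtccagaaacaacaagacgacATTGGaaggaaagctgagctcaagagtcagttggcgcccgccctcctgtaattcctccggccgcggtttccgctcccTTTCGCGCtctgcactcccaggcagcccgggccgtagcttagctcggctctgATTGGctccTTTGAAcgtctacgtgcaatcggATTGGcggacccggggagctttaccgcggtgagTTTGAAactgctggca
Mcm6, GRCr8 chr13:42404353-42404602, minus strand: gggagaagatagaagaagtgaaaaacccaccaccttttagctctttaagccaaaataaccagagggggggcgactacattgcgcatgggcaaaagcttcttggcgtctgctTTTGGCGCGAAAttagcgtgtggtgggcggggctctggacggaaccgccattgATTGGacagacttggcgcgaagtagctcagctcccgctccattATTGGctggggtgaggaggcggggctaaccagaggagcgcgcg
Mcm7, GRCr8 chr12:22163179-22163428, minus strand: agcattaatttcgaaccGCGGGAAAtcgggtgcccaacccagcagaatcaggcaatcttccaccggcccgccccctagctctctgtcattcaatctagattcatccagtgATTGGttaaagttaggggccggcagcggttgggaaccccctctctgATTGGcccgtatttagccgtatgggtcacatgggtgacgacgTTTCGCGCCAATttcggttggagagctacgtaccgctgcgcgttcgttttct

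Top2a held 4 CCAAT boxes and a CHR element 22 bases before its start, Ccnb1 2 CCAAT boxes and no TTTGAA on either strand in this window. No other letters were searched for the CHR element. The full cyclic AMP response element (TGACGTCA) was found in 1 member promoter, that of Mcm5 (1.83% of all promoters), and its shorter core (TGACG) in 8 of 29 (21.2%), of which 6 belong to G1/S and replication genes. The median log2 change of the 13 members with a CHR element was -0.049 and that of the 16 without was -0.056. The 7 with an E2F site had a median of -0.040 and the 22 without -0.049. For the CCAAT box the medians were -0.058 (22 with) and -0.040 (7 without), and for TGACG -0.033 (8 with) and -0.065 (21 without); none of these differences was tested.

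Both chips were fitted separately. Array medians lay within 0.021 (log2) of each other for chip A and within 0.025 for chip B. As a check of the treatment outside the list, Dusp1, a phosphatase of MAP kinases, rose 9.48-fold and 18.0-fold on its 2 probe sets. The probe set with the 18.0-fold rise read 6.33 and 6.38 without forskolin, under the level of the brightness filter (7.02). Nr4a1, a nuclear receptor induced by cyclic AMP, rose 6.82-fold. All of these probe sets were on chip A, so the check did not cover chip B. Among chromaffin cell markers Th, Chga, Chgb and Ddc were above the brightness filter, while Dbh and Slc18a1 were below it. Of the 5 fibroblast markers 3 were above it, of 3 Schwann cell, 4 adrenal cortex and 4 blood and endothelium markers 2 each, and limma called no probe set of these lists. The summed level of the fibroblast markers on chip A was 12.14 to 12.16 (log2) without forskolin and 12.17 to 12.20 with it, and that of the chromaffin markers 12.92 to 12.97 and 13.05 to 13.09. The sums were 8.62 to 8.70 and 8.73 to 8.76 for Schwann cell markers, 8.51 to 8.56 and 8.56 to 8.62 for adrenal cortex, and 9.11 to 9.11 and 9.11 to 9.12 for blood and endothelium. The part of other cells in the results was not tested.

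With forskolin, most of the cell cycle genes were slightly lower and almost none of these differences passed the test. Each gene is represented by the brightest of its tested probe sets, taken from chip A where possible. Of 35 genes, 31 measured below their level without forskolin. Of all tested probe sets, 55.0% (chip A) and 61.9% (chip B) did. The median log2 change of the genes was -0.049, and that of all tested probe sets -0.008 (chip A) and -0.026 (chip B). For the brighter probe sets left by a filter at the 50th percentile it was -0.015 (chip A) and -0.027 (chip B). The genes ranged from -0.21 (Top2a, a 1.16-fold difference) to 0.11 (Ccnd1). The largest called fall was in Top2a, by 0.18 on its dimmer probe set, followed by Ccnb1, by 0.16. Calls were made with limma at an adjusted p under 0.05, adjusted over every tested probe set of a chip. On chip A 2 of 35 tested member probe sets were called lower and none higher, where 3.30% of all tested probe sets were called, 1.26% lower and 2.03% higher. At an unadjusted p under 0.05, 13 were lower and 1 higher, against 10.3% and 7.10% of all. On chip B none of 12 was called by limma with or without an intensity trend, where 0.159% of all were called (0.00935% lower and 0.150% higher), and none had an unadjusted p under 0.05, against 3.33% of all lower and 1.64% higher. Of those 12, 9 were below 0 (61.9% of all), 2 had both forskolin arrays below both others (22.2% of all) and none had them above (10.4% of all). In RNA of a whole culture, fewer cells in a phase and less transcript per cell cannot be told apart.

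**Figure D1:**
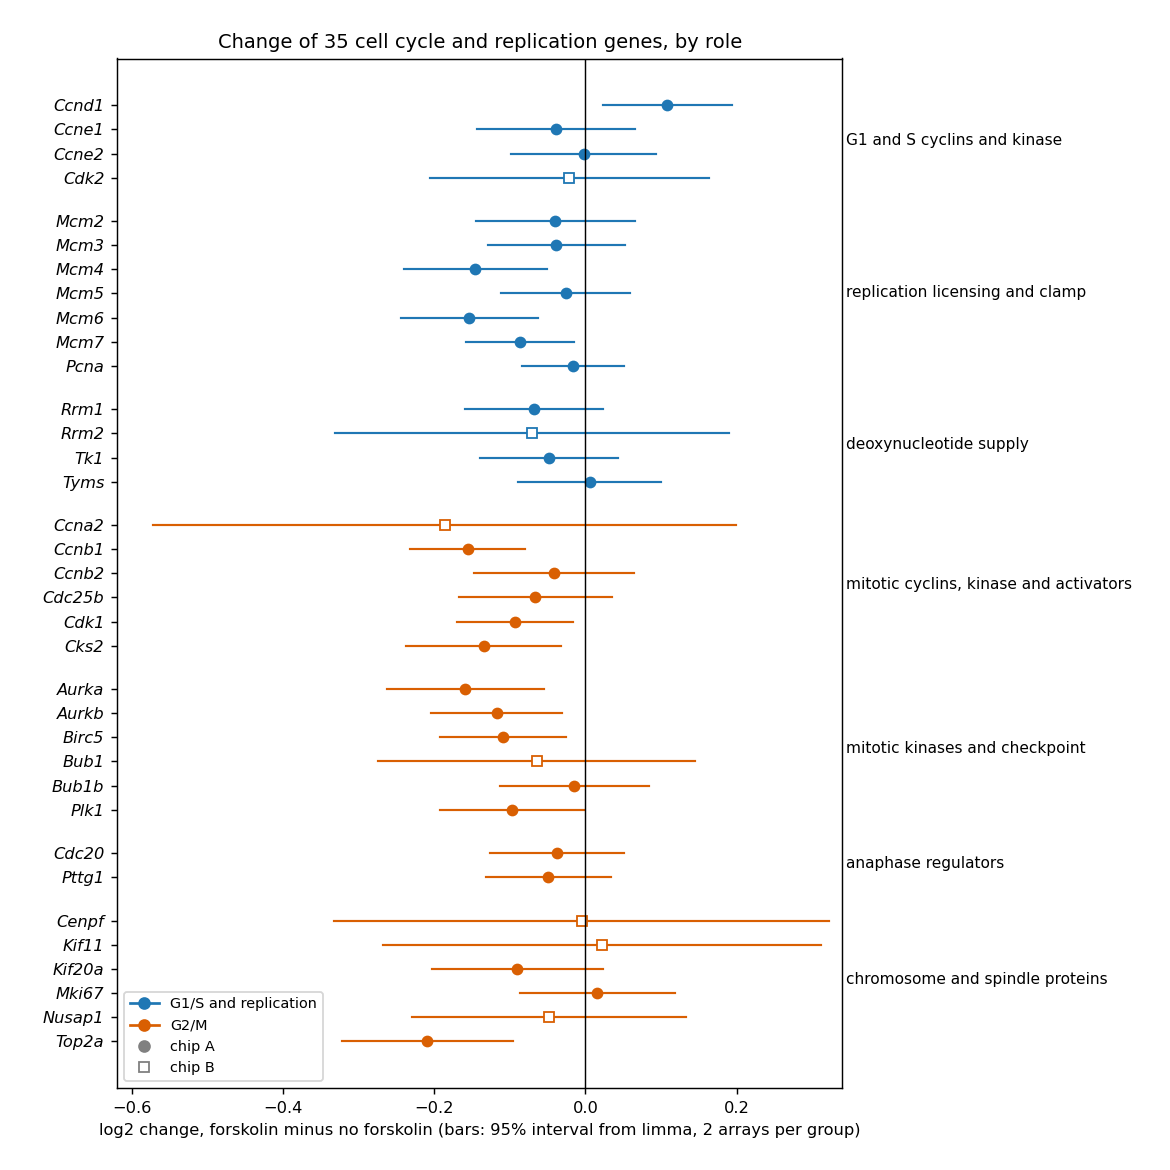
Log2 change of 35 genes (forskolin minus no forskolin, x axis) with limma's 95% interval from 2 arrays per group, ordered by role; filled circles are chip A, open squares chip B, blue G1/S and replication, orange G2/M. Points lie left of 0 for 31 genes, and the interval lies wholly below 0 for 11 genes and above 0 for Ccnd1. Of all tested probe sets, 55.0% (chip A) and 61.9% (chip B) are below 0.

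Among G1/S and replication genes, none of 15 was called, against 3.30% (chip A) and 0.159% (chip B) of all tested probe sets. The median change of these 15 genes was -0.039 (log2). Of the 15, 13 were below 0, against 55.0% (chip A) and 61.9% (chip B) of all tested probe sets. Ccnd1 stood highest among these 15 genes. It encodes cyclin D1, which starts the phosphorylation of the retinoblastoma protein. Its brightest probe set measured 9.93 and 9.97 without forskolin and 10.06 and 10.05 with it (log2), a difference of 0.11 ± 0.04 (SE, n = 2; limma adjusted p = 0.187). Both forskolin arrays lay above both others on all 3 Ccnd1 probe sets, and none was called; 20.4% of all tested probe sets on chip A showed such an order. The E-type cyclins, partners of CDK2 at the start of S phase, hardly differed. Ccne1 measured -0.04 with a 95% interval from -0.14 to 0.07, and Ccne2 -0.00 (-0.10 to 0.09). Cdk2, on chip B only, measured -0.02 (-0.21 to 0.16).

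Of all tested probe sets on chip A, 55.0% were below 0. All 6 subunits of the MCM2-7 helicase were below 0 there, with a median of -0.063 (log2), but none was called. Mcm6 had the smallest p of them. Its arrays read 10.52 and 10.57 without forskolin and 10.36 and 10.43 with it, a difference of -0.15 ± 0.04 (log2, SE, n = 2; limma adjusted p = 0.0911). Mcm4 read 10.32 and 10.41 without and 10.22 and 10.22 with forskolin, a difference of -0.15 ± 0.04 (0.122). Mcm7 read 11.18 and 11.20 without and 11.10 and 11.11 with it, a difference of -0.09 ± 0.03 (0.207). In these 3 genes the groups did not overlap, an order in which both forskolin arrays were lower that 28.0% of all tested probe sets on chip A shared. With each array centred on its median, calls of all tested probe sets on chip A went from 140 to 277 lower. Mcm6 and Mcm4 then passed the threshold (limma adjusted p = 0.0243 and 0.0421). Mcm6 did so under quantile normalization (0.0366), and Mcm4 without no forskolin replicate 1 (0.0423). The arrays of the groups overlapped for Mcm2 (-0.04), Mcm3 (-0.04) and Mcm5 (-0.03), and the 95% intervals of these included 0. Pcna, the sliding clamp that holds polymerases on DNA, read 11.98 and 12.02 without forskolin and 11.99 and 11.98 with it. Its change of -0.02 had an interval from -0.08 to 0.05 and was 0.01 under quantile normalization.

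The enzymes that supply deoxynucleotides were also not called. Rrm1, the large subunit of ribonucleotide reductase, measured -0.07 with an interval from -0.16 to 0.02. Rrm2, its small subunit, was read on chip B at 9.32 and 9.61 without forskolin and 9.38 and 9.41 with it. The 2 arrays without forskolin thus differed by more than the groups did, and the change of -0.07 had an interval from -0.33 to 0.19. Thymidine kinase (Tk1) measured -0.05 on its brightest probe set and thymidylate synthase (Tyms) 0.01 (-0.09 to 0.10).

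Among G2/M genes, the median change was -0.078 (log2), or 1.06-fold. On its brightest probe set 1 of 20 was called lower, against 1.26% (chip A) and 0.00935% (chip B) of all tested probe sets. Of the 20, 18 were below 0, against 55.0% (chip A) and 61.9% (chip B) of all tested probe sets. Top2a, which untangles replicated DNA and peaks in G2 and mitosis, differed most. Its dimmer probe set read 10.23 and 10.27 without forskolin and 10.05 and 10.09 with it, and fell by 0.18 ± 0.04 (log2, SE, n = 2; limma adjusted p = 0.0440). Its brighter one read 10.56 and 10.66 without and 10.46 and 10.34 with forskolin, a difference of -0.21 ± 0.05 that was not called (0.07002). It was called under quantile normalization (limma adjusted p = 0.0454) and with median centring (0.0191). Those settings called 190 and 277 of all tested probe sets on chip A lower, against 140. On both probe sets the forskolin arrays were the lower ones. The call of the dimmer probe set was lost in the absence of either forskolin array or of no forskolin replicate 2. It was also lost with the replicate number as a block, without the intensity trend (limma adjusted p = 0.0737) and without the filter (0.0604).

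Cdk1, the kinase that starts mitosis, and the genes of its cyclins, its small subunit and its activator were below 0 in 6 of 6 cases. Of all tested probe sets, 55.0% (chip A) and 61.9% (chip B) were below 0. Ccnb1, cyclin B1, read 10.99 and 11.02 on its brightest probe set without forskolin and 10.86 and 10.84 with it, and fell by 0.16 ± 0.03 (log2, SE, n = 2; limma adjusted p = 0.0441). The limma adjusted p was 0.0998 without the intensity trend, 0.0617 without the filter and 0.113 with the replicate number as a block. The Ccnb1 call was also lost without any 1 array of the 4, so it depended on each of these choices. Cks2, a small subunit of CDK complexes, read 11.26 and 11.39 without forskolin and 11.18 and 11.20 with it (-0.13 ± 0.04, 0.174). Of the alternatives run, only leaving out no forskolin replicate 1 gave a call (0.0183). Cdk1 itself measured -0.09 with an interval from -0.17 to -0.02 (0.204), the phosphatase Cdc25b, which activates CDK1, -0.07 (-0.17 to 0.03), and Ccnb2 -0.04 (-0.15 to 0.06). Ccna2, cyclin A2, which acts in S phase and G2, was on chip B and read 9.35 and 9.84 without forskolin and 9.30 and 9.52 with it. The arrays without forskolin lay 0.49 apart, and the change of -0.19 had an interval from -0.57 to 0.20; it turned to 0.06 without no forskolin replicate 2.

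The 6 kinases and checkpoint proteins of mitosis were likewise all below 0 and not called. Below 0 were also 55.0% (chip A) and 61.9% (chip B) of all tested probe sets. Aurka, a kinase of the spindle poles, read 8.90 and 8.98 without forskolin and 8.75 and 8.80 with it (-0.16 ± 0.05, limma adjusted p = 0.125). Aurkb, the kinase of the chromosomal passenger complex, read 9.56 and 9.59 without and 9.45 and 9.46 with forskolin (-0.12 ± 0.04, 0.162). Birc5, or survivin, a subunit of the same complex, read 10.23 and 10.23 without and 10.14 and 10.10 with it (-0.11 ± 0.04, 0.176). These 3 genes lay lower on both forskolin arrays, and so did Plk1, a kinase needed throughout mitosis (-0.10, 0.281). Of all tested probe sets on chip A, 28.0% showed this order. Bub1b, a component of the spindle checkpoint, measured -0.01 with an interval from -0.11 to 0.08, and the checkpoint kinase gene Bub1, on chip B, -0.06 (-0.28 to 0.15).

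Of the remaining G2/M genes none was called apart from Top2a. Cdc20, an activator of the anaphase-promoting complex, measured -0.04 and Pttg1, securin, which holds back the separation of chromatids, -0.05. The mitotic kinesin gene Kif20a measured -0.09 (-0.20 to 0.02). Mki67, whose protein marks dividing cells, read 10.58 and 10.70 without forskolin and 10.66 and 10.65 with it, a change of 0.02 with an interval from -0.09 to 0.12. The forskolin arrays of Mki67 lay between the others. On chip B, Nusap1, a microtubule-binding protein of the spindle, measured -0.05, the centromere protein gene Cenpf -0.00 (0.02 under quantile normalization and with median centring) and the kinesin gene Kif11 0.02 (-0.27 to 0.31).

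Set side by side on chip A, the class medians were -0.039 for 13 G1/S and replication genes and -0.093 for 15 G2/M genes. The median of all tested probe sets was -0.008, and that of those left by a filter at the 50th percentile -0.015. Both forskolin arrays were below both others in 4 of 13 and 12 of 15 genes, an order found in 28.0% of all tested probe sets on the chip. On that chip 11 of 13 and 14 of 15 genes were below 0, against 55.0% of all tested probe sets and 59.5% of those left by a filter at the 50th percentile. The mean over the G2/M genes, relative to their mean without forskolin, was -0.101 and -0.081 on the forskolin arrays and -0.022 and 0.022 on the others. For the G1/S and replication genes the same means were -0.053 and -0.032, and -0.016 and 0.016. On chip A the groups of arrays did not overlap in either class mean. On chip B the medians were -0.046 for 2 G1/S and replication genes and -0.049 for 5 G2/M genes. The median of all tested probe sets there was -0.026. The mean over those G2/M genes was -0.139 and 0.026 on the forskolin arrays and -0.126 and 0.126 on the others, which overlap. The distance between the class medians (0.055 on chip A) was not tested, since the genes were chosen with earlier results known. Both medians depended on no forskolin replicate 2: over both chips they were -0.039 and -0.078 with that array and -0.0053 and -0.039 without it, when 24 of 35 genes were below 0. Of all tested probe sets, 51.3% (chip A) and 54.5% (chip B) were below 0 without that array. Placing Ccna2 with the G1/S genes gave class medians of -0.039 and -0.066.

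**Figure D2:**
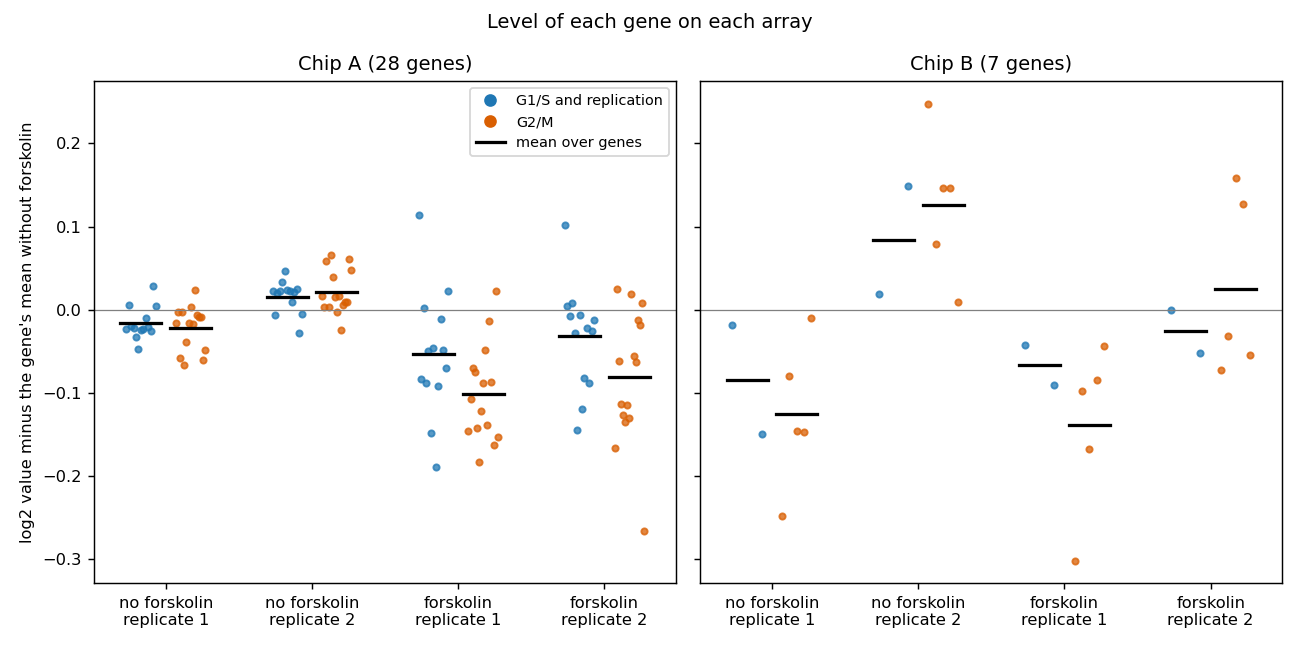
Log2 value of each gene on each array minus the mean of its 2 arrays without forskolin (y axis), by array (x axis), for chip A (28 genes) and chip B (7 genes); points are genes, black lines the mean over a class. On chip A both forskolin arrays have class means below both others, with G2/M at -0.101 and -0.081; on chip B replicate 2 of each group lies above replicate 1.

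**Figure D3:**
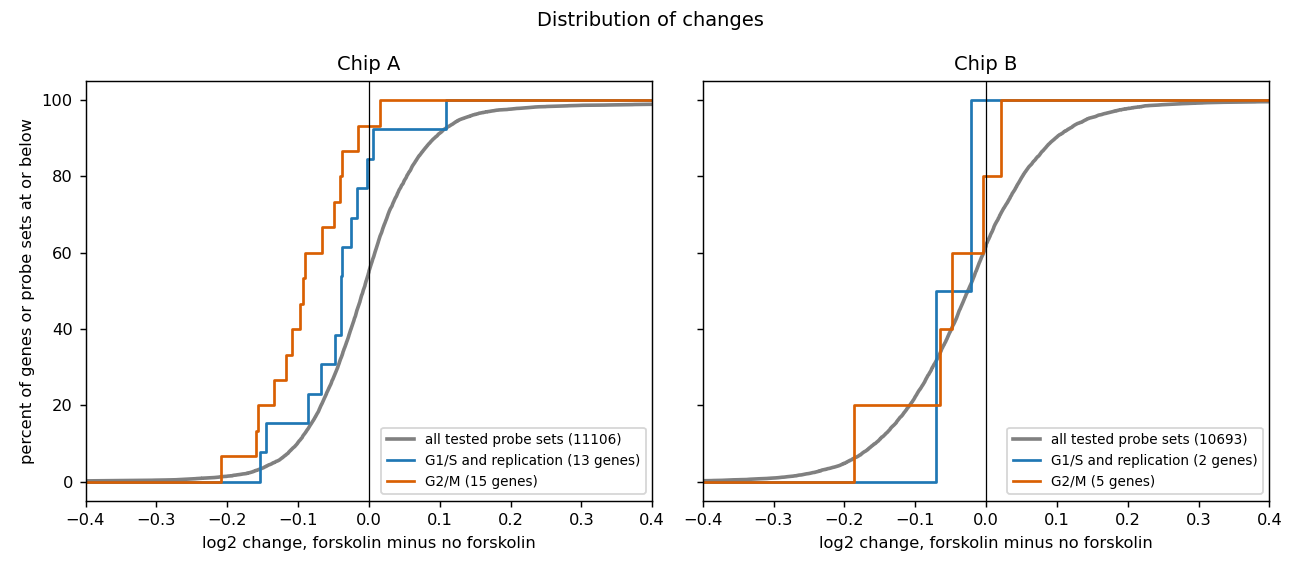
Cumulative percent of genes or probe sets (y axis) at or below a log2 change (x axis), for all tested probe sets (grey), G1/S and replication genes (blue) and G2/M genes (orange), by chip. On chip A the G2/M curve lies to the left, with a median of -0.093 against -0.039 and -0.008; on chip B only 7 genes are drawn.

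On chip B the spread between replicates was larger. For member probe sets the median standard error of the log2 change was 0.041 (chip A) and 0.093 (chip B), and the 95% interval reached a median of 0.095 and 0.22 to either side. Replicate 2 read higher than replicate 1 in 9 of 12 member probe sets with forskolin and in 9 of 12 without it, against 45.4% and 56.0% of all tested probe sets. On chip A it read higher in 22 of 35 with forskolin and 27 of 35 without, against 61.1% and 59.4% of all. Cenpf read 9.05 and 9.34 without forskolin and 9.02 and 9.35 with it. On the brighter Kif11 probe set replicate 2 exceeded replicate 1 by 0.29 without and 0.21 with forskolin. In these genes and in Ccna2 the arrays differed by replicate number more than by forskolin.

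Probe sets of the same gene mostly gave the same direction, and in 7 of 9 genes none was called, while Ccnb1 and Top2a each had 1 of 2 called. Of 9 genes with several tested probe sets, 6 had a single sign (5 lower, 1 higher) and 3 had mixed signs. The share with a single sign among genes outside the list was not computed. The count with a single sign was 5 with no filter, 7 with quantile normalization and 5 to 9 without 1 array. The median distance between the highest and lowest change of a gene was 0.055 (log2). The 3 with mixed signs, Ccne2, Cdk2 and Kif11, had all their changes between -0.03 and 0.07, with every interval spanning 0. The widest distance was in Ccnb1. Its other probe set, annotated to the same source sequence, read 10.05 and 10.11 without forskolin and 10.01 and 10.08 with it, a change of -0.03 ± 0.04 (limma adjusted p = 0.756), so the Ccnb1 call stood on 1 of 2 probe sets. The Top2a probe sets, also from 1 source sequence, gave -0.21 and -0.18, and the smaller change, with the smaller standard error (0.04 against 0.05), was the one called.

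Ccnd1 was the one gene with several probe sets that were all higher: 0.11, 0.10 and 0.05. Tk1 was lower on both chips, by -0.05 and -0.10 on chip A and -0.06 on chip B, with no call; both forskolin arrays were below both others on 2 of the 3 probe sets, an order shared by 28.0% (chip A) and 22.2% (chip B) of all tested probe sets. The Nusap1 probe sets on chip B gave -0.05 and -0.05. Cdc20 had 5 probe sets. Of these, 3 passed the filter, with -0.04 and -0.04 from 1 source sequence and -0.09 from another. The other 2 were below the filter. For 1 of them the arrays read 7.01 and 7.02 without forskolin and 6.83 and 6.83 with it, a difference of -0.18. It was not called when all probe sets were tested (limma adjusted p = 0.127). The last probe set measured 0.0038.

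**Figure D4:**
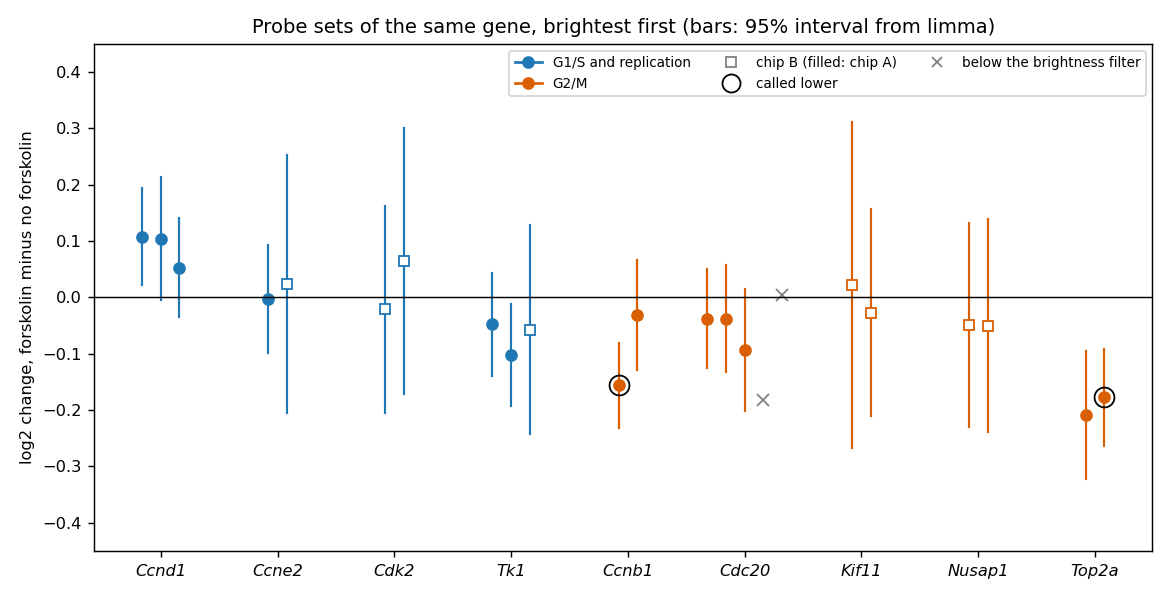
Log2 change (y axis) of every probe set of the 9 genes with several, brightest first, with limma's 95% interval from 2 arrays per group; squares are chip B, circled points were called lower, crosses lay below the brightness filter and were not tested. Only 1 of the 2 probe sets of Ccnb1 (-0.16 and -0.03) and of Top2a (-0.21 and -0.18) was called.

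Other cell cycle genes, from a list of 115, showed calls in both directions. Of 95 tested, 3 were called lower and 1 higher through their brightest probe sets, with 70 below 0 and a median of -0.051 (log2). Among all tested probe sets 55.0% (chip A) and 61.9% (chip B) were below 0, with medians of -0.008 and -0.026. On chip A, where 1.26% and 2.03% of all tested probe sets were called lower and higher, all 4 of the called genes were among 66. Of 36 genes of DNA replication (origin licensing and firing, the fork and nucleotide supply), 2 were called lower, none higher, and 30 were below 0. Gins3, a subunit of the GINS complex of the replicative helicase, read 8.86 and 8.95 without forskolin and 8.53 and 8.65 with it, and fell by 0.31 ± 0.05 (SE, n = 2; limma adjusted p = 0.0174). Fen1, the nuclease that trims Okazaki fragments, read 9.33 and 9.36 without and 9.06 and 9.14 with forskolin, and fell by 0.24 ± 0.04 (0.0183). Both falls were larger than that of any member. Pold3, a subunit of DNA polymerase delta, fell by 0.28 on its dimmer probe set (0.0330) and measured -0.16 on its brighter one (0.158). The origin recognition gene Orc3, on chip B, measured -0.34 ± 0.11 without a call (0.939).

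In the mitotic groups, Hmmr, a spindle-associated protein, read 9.92 and 9.94 without forskolin and 9.75 and 9.69 with it, and fell by 0.21 ± 0.04 (limma adjusted p = 0.0224) on 1 of 2 probe sets; the other measured -0.03. It was the called gene among 21 of spindle, kinetochore and condensin. Of those 21, 18 were below 0, against 55.0% (chip A) and 61.9% (chip B) of all tested probe sets. Spc25, of the kinetochore, measured -0.17 (0.0773). None of 16 genes of G2/M control was called (unadjusted p under 0.05 in 2 lower and none higher, where 10.3% of all tested probe sets were lower at that p for chip A and 3.33% for chip B). Separase (Espl1) measured -0.13 (0.155) and cyclin F (Ccnf), on chip B, -0.21 (0.977).

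Among regulators of G1 the called gene was higher. Of 16 genes of G1 kinases, Rb and E2F, 1 was called higher and none lower. Of these 16, 8 were below 0, against 55.0% (chip A) and 61.9% (chip B) of all tested probe sets. Myc, a transcription factor that promotes growth, read 7.81 and 7.99 without forskolin and 8.31 and 8.46 with it, and rose by 0.48 ± 0.07 (log2, SE, n = 2; limma adjusted p = 0.00781). Cdk4, the partner of cyclin D1, measured -0.10 (0.150). None of 6 CDK inhibitors was called on its brightest probe set (unadjusted p under 0.05 in 2 higher and 1 lower, against 7.10% and 10.3% of all on chip A and 1.64% and 3.33% on chip B). Cdkn1a, or p21, rose by 0.30 ± 0.05 on its dimmer probe set (0.0173) and measured 0.13 on the brighter one (0.106), with both forskolin arrays the higher ones on each. Cdkn2b, or p15, measured 0.17 (0.171). Without forskolin replicate 1 the calls of Gins3, Fen1 and the Cdkn1a probe set were lost. The Cdkn1a call was also lost with the replicate number as a block (limma adjusted p = 0.0930). The Hmmr call was lost without forskolin replicate 2 (0.108) or no forskolin replicate 2 (0.0540), and that of Pold3 without forskolin replicate 2 (0.136) or no forskolin replicate 1 (0.0643). The Myc call held without each array in turn.

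**Figure D5:**
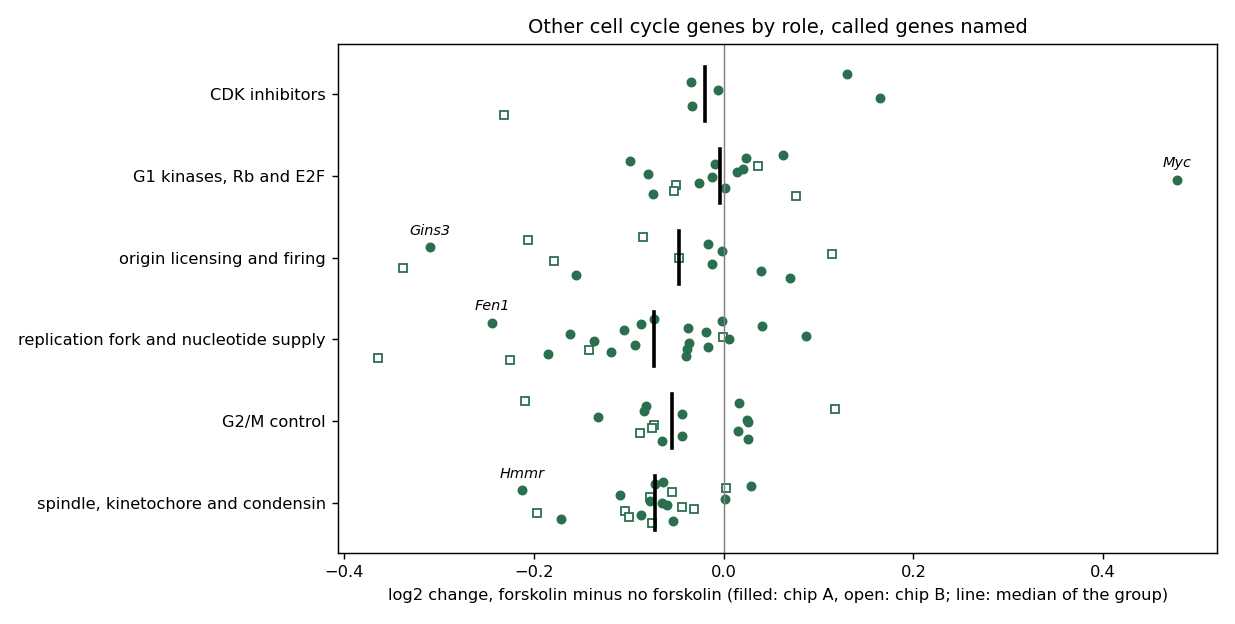
Log2 change (x axis) of 95 other cell cycle genes by role (y axis), each through its brightest tested probe set; filled points are chip A, open squares chip B, vertical lines the median of a role, and the 4 called genes are named. Gins3, Fen1 and Hmmr lie at -0.31, -0.24 and -0.21, Myc at 0.48.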

How the data were processed

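The authors deposited 1 table per chip, holding a log2 expression value for each array and probe set. The sources used here give no background correction, probe summary or scaling, and the log base was inferred from the range of the values. Detection calls were not used here, so distance from background is unknown. Symbols came from GEO's annotation of the chips, updated by Entrez number to RefSeq (GRCr8); 12783 of 15866 (chip A) and 7564 of 15276 (chip B) had 1 symbol. A brightness filter removed probe sets whose mean linear value fell under their chip's 30th percentile, a log2 level of 7.02 (chip A) and 6.02 (chip B), and kept 11106 and 10693. Authors' scaling was kept, since array medians lay within 0.1. Each chip was fitted with limma 3.58.1 in R 4.3.3 (lmFit, eBayes with trend, two-sided, Benjamini-Hochberg over all tested probe sets), after a test on simulated data. SE is limma's moderated standard error. Alternatives were quantile normalization, median centring, other filters, no trend, each array left out and the replicate number as a block. Arrays were named from their titles. Number of arrays limits precision.

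Members, lists, classes and tests were chosen with earlier results of these data known. All 36 members could be named; values per array were set for members called, for the 4 smallest p of each class and for probe sets of mixed sign with an unadjusted p under 0.05, and further ones were added after their values were seen. Of other pathway genes, those called and the 2 smallest p of each role are named. Dusp1 and Nr4a1 served as a check of the treatment on chip A. The marker lists were those of chromaffin cells, fibroblasts, Schwann cells, adrenal cortex, and blood and endothelium.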

Additional observations from a re-analysis of the deposited data

How the results depend on the processing

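With 2 arrays a group, the 95% interval of 23 of the 35 genes spanned 0. The count of called member probe sets on chip A was 2. Quantile normalization gave 4, median centring 5, and it was 0 with no filter, without the intensity trend and with the replicate block. On chip B the count was 0 throughout. Of all 11106 tested probe sets on chip A, 140 were called lower and 226 higher. Quantile normalization called 190 and 282 of them, median centring 277 and 300, and the replicate block 46 and 159. Without the intensity trend 117 and 213 were called, and with no filter 101 and 218 of 15866. The class medians ranged from -0.050 to -0.0053 (G1/S and replication) and from -0.115 to -0.039 (G2/M) without 1 array, and the genes below 0 from 24 to 33. The 24 were found without no forskolin replicate 2, when 51.3% (chip A) and 54.5% (chip B) of all tested probe sets were below 0. The 33 were found without no forskolin replicate 1, when 58.3% and 61.9% were. Calls among other pathway genes numbered 4, but 2 with the replicate block and 2 to 6 without 1 array. The labels of same-numbered arrays share a number and do not say what else those arrays share. Deviations of same-numbered arrays correlated at 0.0034 on chip A and 0.20 on chip B over all tested probe sets. Over the 12 member probe sets of chip B the correlation was 0.80. The cause of these differences was not tested. Uncalled changes near 0 turned sign under quantile normalization for Pcna (0.0075), Cenpf (0.020) and the dimmer Kif11 probe set (0.0017), and with median centring for Cenpf (0.016). Leaving out 1 array in turn turned the sign of these further uncalled changes (log2, lowest to highest): Bub1 from -0.14 to 0.014, Bub1b from -0.049 to 0.019, Ccna2 from -0.43 to 0.061, Ccnb1 (dimmer probe set) from -0.067 to 0.0035, Ccnb2 from -0.11 to 0.025, Ccne1 from -0.083 to 0.0050, Ccne2 (brightest probe set) from -0.022 to 0.017, Ccne2 (dimmer probe set) from -0.056 to 0.10, Cdc20 (second brightest probe set) from -0.077 to 0.0017. The others that turned were Cdk2 (dimmer probe set) from -0.028 to 0.16, Cenpf from -0.17 to 0.16, Kif11 (dimmer probe set) from -0.056 to 0.0011, Kif11 (brightest probe set) from -0.12 to 0.17, Mcm2 from -0.088 to 0.0087, Mki67 from -0.045 to 0.076, Pcna from -0.038 to 0.0044, Rrm2 from -0.22 to 0.078 and Tyms from -0.012 to 0.023.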
